A study of Mus musculus with 13 samples.

Results

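Induced embryonic Sertoli cells (ieSC), made from fibroblasts with gonadal transcription factors, were set against the cells they are named after, Sertoli cells taken from the late fetal mouse testis and grown in a dish. The comparison used 5 of the 13 arrays of the series: 3 of induced cells, pooled from 2 fibroblast sources, and 2 of immature Sertoli cells. A feature of the array was kept when it carried a gene name and lay above the array median on at least 2 of these 5 arrays. This left 22953 of 31465 named features, out of 62976 features on the array, and covered 15166 of 20738 genes. Of the named features, 19154 were above the median on all 5 arrays and 7953 on none. The 2165 features just inside the rule, above the median on 2 arrays, had a median level of 7.30 over the 5 arrays, and the 559 just outside it, above on 1 array, had 6.98.

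The induced cells came from tail tip fibroblasts (TTF-ieSC, 2 arrays) or from mouse embryonic fibroblasts (MEF-ieSC, 1 array). All 3 carried transgenes for Nr5a1, Wt1, Dmrt1, Gata4 and Sox9 and had been cultured for 6 months in medium with 2% serum and doxycycline. The immature Sertoli cells were wild type, carried no transgene, came from testes at 19 days post coitum (dpc) and had been cultured for 3 days in 10% serum. Transgenes, time in culture, serum and doxycycline therefore differed together between the sides and cannot be told apart. The other 8 arrays showed where a level lay in the series: MEF with an empty vector and TTF with tdTomato, both after 3 passages in 10% serum, whole male gonad at 14.5 dpc without culture, and mature Sertoli cells from 8-week-old testis after 7 days in 10% serum, with 2 arrays each.

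Sertoli cells are the somatic cells of the seminiferous tubule. In the fetus they direct testis formation through factors such as Sox9. They secrete anti-Müllerian hormone, which removes the female duct, and desert hedgehog, which acts on Leydig and peritubular cells. Later they seal the tubule with tight junctions, feed germ cells with lactate, transferrin and growth factors, and make inhibin B under the control of follicle-stimulating hormone.

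All values are deposited log2 signals from 1-colour arrays, so a difference of 1 is a doubling. Induced values are given in the order TTF-ieSC 1, TTF-ieSC 2, MEF-ieSC, and immature values in the order of replicates 1 and 2. Differences are induced minus immature means, with the standard error (SE) of a limma fit over all 13 arrays and the Benjamini-Hochberg adjusted p over the 15166 genes. A gene was called higher or lower at an adjusted p under 0.05. Every array had a median of 7.49 and a 75th percentile of 10.5, and with no detection flags a level near or under the median is dim by rank only. Different genes were measured with different features, whose levels are not comparable with one another.

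The sides differed across most of the array. Of the genes tested, 12020 were called, 79.3%: 6052 were higher in induced cells (39.9%) and 5968 were lower (39.4%). The 3 induced and 2 immature arrays did not overlap for 12812 genes (84.5%). With this background a single call is common, so each gene group below is read by its counts, its size and its median difference beside the median of 0.02 over all genes. The group holding called genes with a rise of at least 1 was 2251 genes (14.8%), and that with a fall of at least 1 was 2658 genes (17.5%). Among called genes, large falls were more frequent than large rises: 901 fell and 326 rose by at least 3.

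Over the tested genes, the mean profile of induced cells lay at a root mean square log2 distance of 1.62 from immature Sertoli cells. It lay 1.63 from MEF, 1.78 from TTF, 1.76 from gonad and 1.68 from mature Sertoli cells. The immature Sertoli cells lay 1.0 from mature Sertoli cells, 1.14 from gonad, 1.28 from MEF and 1.53 from TTF. Over these genes, the distance from induced to immature cells was about as large as that to MEF. The genes were chosen on the induced and immature arrays alone. Genes bright on only 1 of these sides were thus kept, and genes bright only in other groups were left out. The distances are therefore no fair ranking of the groups. Replicate arrays lay closer together, 0.236 apart for the TTF-ieSC pair and 0.26 for the immature pair, and MEF-ieSC lay 0.438 and 0.444 from the TTF-ieSC arrays. On an array layout inferred from feature numbers, 1 corner of 960 features was uneven on immature array 2, whose median difference from array 1 was -0.86 there and 0.03 elsewhere. The corner held 228 of the tested genes, and no gene named below lies in it unless stated. The Y-linked gene Eif2s3y, chosen after its values were seen, measured 5.15, 5.08 and 6.00 in induced against 12.78 and 12.72 in immature cells. Its means were 11.09 in MEF, 5.97 in TTF, 13.35 in gonad and 12.78 in mature Sertoli cells, so it was dim in the induced cells and TTF alone. Whether this bears on other differences was not tested.

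**Figure D1:**
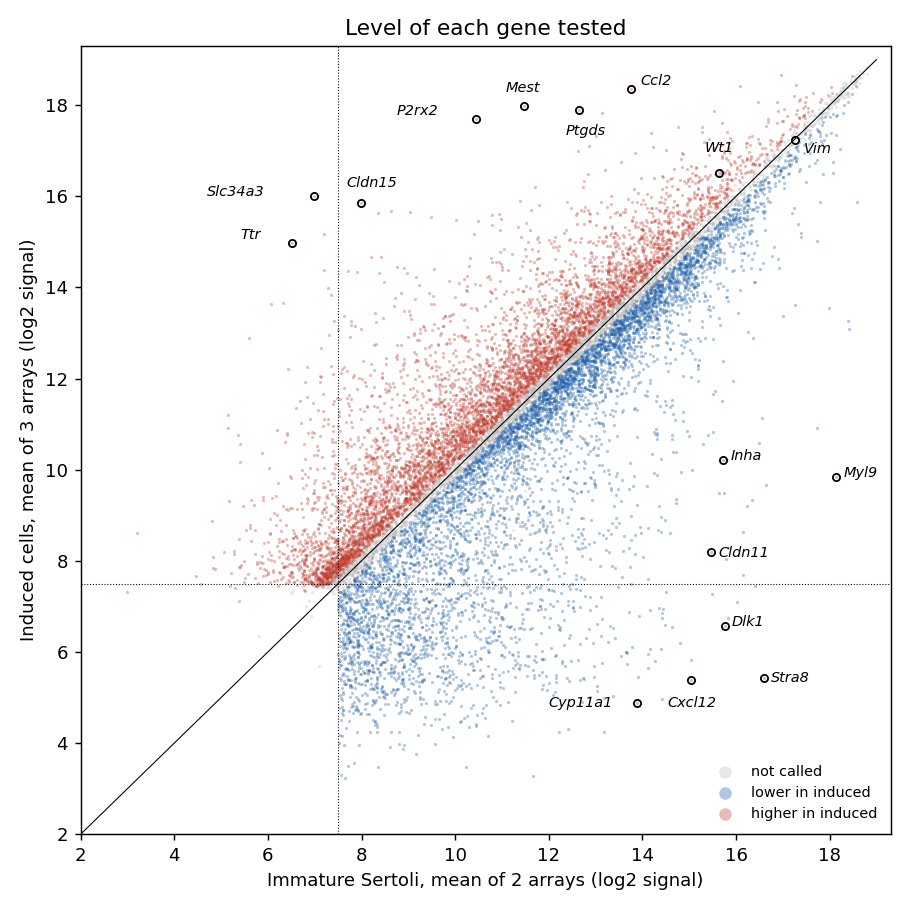
Mean log2 signal of each of the 15166 tested genes in induced cells (3 arrays, y axis) against immature Sertoli cells (2 arrays, x axis), coloured by call, with the array median of 7.49 as dotted lines. Called rises and falls were about equally frequent, 6052 against 5968, but 901 genes fell and 326 rose by at least 3. Stra8 fell the furthest, by 11.17.

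The 10 largest rises among bright genes were in genes whose means were lower in every other group of the series. Slc34a3, a sodium-phosphate cotransporter, measured 15.81, 15.73 and 16.44 in induced against 6.98 and 7.00 in immature cells. It rose by 9.01 ± 0.57 (adjusted p = 2.23e-07), and its gonad mean was 8.17. Ttr, the carrier of thyroxine and of retinol-binding protein, measured 14.80, 14.64 and 15.47 in induced against 6.44 and 6.59 in immature cells. All induced arrays were far above the immature ones for both genes, whose immature values were under the array median. The homeobox gene Tlx2 rose by 7.97 ± 0.19, the claudin Cldn15 by 7.87 ± 0.09 and the ATP-gated channel P2rx2 by 7.24 ± 0.08. P2rx2 was bright on every induced array, at 17.67, 17.73 and 17.67, and measured 10.35 and 10.56 on the immature arrays. Cartilage-type collagens were also among the 10 largest rises. Col9a3, also a member of the list of embryonic Sertoli markers, measured 13.60, 13.63 and 13.65 in induced against 6.34 and 5.78 in immature cells. Its gonad mean of 10.48 was the only other group mean above the array median. Col11a2 rose by 7.20 ± 0.13. Col9a1 rose by 7.29 ± 0.37 on its brightest feature and by 0.78 on its other feature. The intermediate filament gene Prph, known from peripheral neurons, rose by 7.29 ± 0.10. Svopl, a transporter-like gene, rose by 7.33 ± 0.12.

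The largest fall was that of Stra8, the retinoic acid target that marks germ cells entering meiosis. It measured 5.41, 5.30 and 5.58 in induced against 16.71 and 16.49 in immature cells, and its mean was 10.46 in gonad and 12.64 in mature Sertoli cells. The induced values were under the array median and far below both immature arrays. Cxcl12, a chemokine that guides and retains germ and stem cells, measured 5.12, 5.08 and 5.96 in induced against 14.93 and 15.13 in immature cells. Its means in MEF and TTF were 17.01 and 16.78, so it was bright in every group of the series but the induced cells. Adh1, an alcohol dehydrogenase that acts on retinol, fell by 9.45 ± 0.43 (adjusted p = 1.84e-08). Prkar2b, a regulatory subunit of protein kinase A, fell by 9.22 ± 0.12, and Dlk1, an imprinted gene of progenitor cells, fell by 9.20 ± 0.08. Both of these were also bright in MEF and TTF, where Prkar2b had means of 13.43 and 13.84 and Dlk1 of 15.46 and 15.17. Cyp11a1, the side-chain cleavage enzyme that begins steroid synthesis, measured 5.72, 4.36 and 4.58 in induced against 13.78 and 14.01 in immature cells. The remaining genes among the 10 largest falls were Cxcl14, Tuba3a, Bves and Crispld2, which fell by 8.92 to 9.10. Bves was uneven among the induced arrays, at 1.43, 5.68 and 5.63.

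Many of these changes set the induced cells apart from the fibroblasts as well. Of the 2658 genes that fell by at least 1, the induced mean was at least 1 below both fibroblast means in 1174 and within 1 of a fibroblast mean in 1368. In 865 of the 2658 it was at least 1 below all 5 other groups. Of the 2251 genes that rose by at least 1, the induced mean was at least 1 above both fibroblast means in 1039, within 1 of a fibroblast mean in 1167, and at least 1 above all 5 other groups in 719. Among all called falls, 1453 genes had an induced mean under the array median, and among called rises 693 had an immature mean under it. A gene dim on 1 side entered the comparison through the other side, so such genes had to differ, and counts over tested genes include them.

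Of the 5 factors used to make the cells, 1 was higher in induced cells and 4 were lower, with 79.3% of all genes called. Wt1, the Wilms tumour zinc finger factor that starts gonad formation, measured 16.48, 16.49 and 16.58 in induced against 15.61 and 15.67 in immature cells. Its rise of 0.88 ± 0.07 is 1.84-fold (adjusted p = 7.18e-07), and the MEF and TTF means were 11.77 and 6.81. Every induced array was above both immature arrays. Sox9, the factor downstream of Sry that fixes Sertoli fate, measured 9.79, 9.79 and 9.12 in induced against 13.56 and 13.38 in immature cells. It fell by 3.90 ± 0.17 (adjusted p = 1.61e-08), to below its means of 10.88 in MEF and 11.31 in TTF. Nr5a1, the nuclear receptor that activates steroid and Amh genes, measured 9.37, 9.36 and 8.94 in induced against 13.77 and 14.02 in immature cells. Its induced values were near the MEF mean of 9.19 and above the TTF mean of 8.28. The fall was -4.67 ± 0.13 (adjusted p = 5.41e-10). Dmrt1, which keeps Sertoli cells from turning into granulosa cells, measured 9.17, 9.17 and 9.21 in induced against 11.96 and 11.79 in immature cells. The induced arrays lay near the fibroblast means of 8.99 and 9.10. Gata4, the zinc finger partner of Nr5a1 in Sertoli promoters, measured 6.70, 7.15 and 6.92 in induced against 14.04 and 14.28 in immature cells. It had the largest fall of the 5, -7.24 ± 0.13 (adjusted p = 2.65e-11), and all induced values were under the array median. Whether these features detect the transgene transcripts or the mouse genes alone is not given in the sources used here.

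Among 20 other tested transcription factors and regulators of the gonad, 5 were higher, 12 were lower and 3 were not called, with a median difference of -0.36. Gadd45g, needed for timely Sry expression, measured 10.85, 10.79 and 10.14 in induced against 16.57 and 16.42 in immature cells. Its gonad mean was 14.96, and the induced arrays were the lowest of the series for it. Tcf21 fell by 4.28 ± 0.11, and Nr0b1, the Dax1 receptor of the Nr5a1 network, fell by 4.17 ± 0.24, both to levels under the array median.

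The markers of embryonic Sertoli cells went in both directions. Of 33 listed genes, 32 were tested: 12 were higher, 18 lower and 2 not called, with a median difference of -0.49. That is 37.5% higher and 56.2% lower, beside 39.9% and 39.4% over all genes, and 10 rises and 14 falls were of at least 1. With a filter at the 75th percentile, which leaves 24 of the markers, the median was 0.24, so the direction of the median rests on the dimmer markers. Ptgds, the prostaglandin D synthase that sustains Sox9, measured 18.03, 18.14 and 17.50 in induced against 12.65 and 12.65 in immature cells. It rose by 5.24 ± 0.15, or 37.7-fold (adjusted p = 7.66e-10), above its gonad mean of 16.89, while MEF and TTF had 8.05 and 6.85. Cst9, the cystatin-related testatin of fetal Sertoli cells, measured 13.16, 13.20 and 13.42 in induced against 7.55 and 7.29 in immature cells. It was dim in the immature cells and bright in gonad, with a mean of 16.92, so the induced arrays lay between them. Cyp26b1, the enzyme that destroys retinoic acid and delays meiosis in the fetal testis, measured 14.32, 14.26 and 13.96 in induced against 10.63 and 10.84 in immature cells. All 3 induced arrays were above both immature arrays, by 3.45 ± 0.11 (adjusted p = 1.19e-09), and the gonad mean was 15.80.

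Some secreted and signalling products were among the higher genes, while others, given further below, were lower. Dhh, desert hedgehog, measured 15.65, 15.68 and 15.87 in induced against 14.27 and 14.32 in immature cells, with means of 8.62 in MEF and 9.64 in TTF. The rise was 1.44 ± 0.08 (adjusted p = 6.85e-08). Gdnf, which keeps spermatogonial stem cells dividing, measured 14.06, 14.00 and 13.54 in induced against 12.37 and 12.11 in immature cells. It rose by 1.62 ± 0.14, and its TTF mean of 13.14 was also above the immature level. Trf, the transferrin that brings iron to germ cells, measured 17.99, 17.97 and 16.21 in induced against 14.24 and 14.12 in immature cells, with the MEF-derived array lowest of the 3. Serpine2, a protease inhibitor, rose by 2.31 ± 0.10, and Sox10, a relative of Sox9, by 2.31 ± 0.07. Tesc, a calcium-binding protein of the early testis, measured 17.13, 17.17 and 17.24 in induced against 16.59 and 16.39 in immature cells, a small rise over a high level, with 10.70 in MEF and 8.37 in TTF. Krt18 rose by 0.50 ± 0.13 while its filament partner Krt8 fell by 3.22 ± 0.14. Krt8 measured 12.89, 12.86 and 13.34 in induced against 16.18 and 16.33 in immature cells, so no induced array reached the immature level. Rhox8 rose by 1.14 ± 0.11 on its brightest feature and differed by -1.50 on another, and their average gave -0.18.

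Other embryonic markers were far lower. Aard measured 5.83, 5.20 and 6.85 in induced against 14.11 and 14.14 in immature cells, and its gonad and mature Sertoli means were 15.40 and 15.54. Defb19, a defensin of Sertoli cells, fell by 7.66 ± 0.62, and Mmd2 fell by 4.46 ± 0.33. Mro, the nuclear protein maestro, fell by 6.77 ± 0.14 on its brightest feature and by less on another, -2.67. The induced arrays were under the array median for these 4 genes. Etd fell by 3.13 ± 0.29, Hsd17b3 fell by 2.75 ± 0.14 and Hsd17b1 fell by 2.03 ± 0.20, the last 2 being enzymes that convert sex steroids. Rhox5, an X-linked homeobox gene of Sertoli cells, measured 8.48, 8.57 and 8.36 in induced against 10.15 and 10.26 in immature cells, and its gonad mean was 16.52. Clu, the secreted chaperone clusterin, stayed bright at 17.86, 17.81 and 17.82 against 18.29 and 18.29, a fall of -0.46 ± 0.08 (adjusted p = 0.000332). Nedd9 and Ptprz1 were not called, at -0.02 ± 0.09 and -0.12 ± 0.10. Fgf9, which maintains Sox9, differed by -0.52 ± 0.18 (adjusted p = 0.0205), a call lost without immature array 1, where the adjusted p was 0.118. Kitl, the germ cell growth factor, differed by -1.04 ± 0.35 (adjusted p = 0.0186), and that call was lost without immature array 1 (0.144) and without the MEF-ieSC array (0.0525). Amh, the hormone that defines fetal Sertoli cells, was dim on both sides, at 7.30, 7.42 and 7.30 in induced and 8.26 and 8.34 in immature cells, against a gonad mean of 12.34. Cst9 and Amh were thus markers that the cultured immature cells themselves showed near or not far above the array median.

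**Figure D2:**
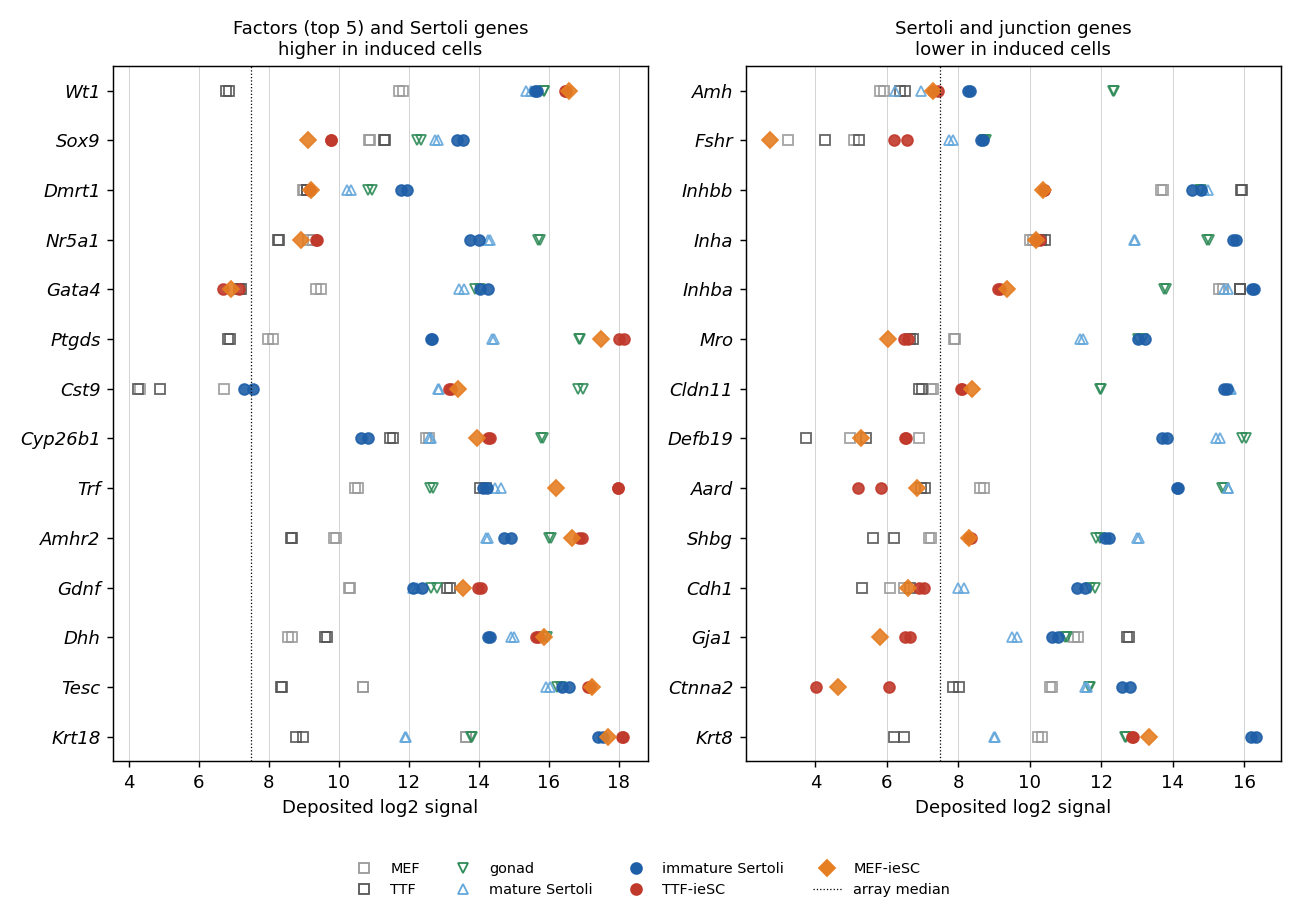
Log2 signal (x axis) of the 5 factors and Sertoli genes on each of the 13 arrays, 1 symbol per array, with the array median dotted. Ptgds, Cst9, Cyp26b1 and Trf lay above the immature arrays on every induced array, and Gata4, Inha, Cldn11, Aard and Mro lay below them.

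Of 20 tested markers of mature Sertoli cells, 7 were higher, 12 lower and 1 not called, with a median difference of -0.93. Defb36, a defensin, measured 6.47, 5.68 and 6.05 in induced against 14.02 and 14.30 in immature cells, and its mature Sertoli mean was 16.38. Shbg, which binds androgens, fell by 3.84 ± 0.13, and its induced values of 8.37, 8.29 and 8.29 were all below the immature ones.

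The hormone system of Sertoli cells was lower on the ligand side and mixed among receptors. Of 18 tested hormones and receptors, 6 were higher, 12 lower and none was uncalled, against 79.3% called over all genes, and 2 rose and 6 fell by at least 1. Inha, the alpha subunit of the inhibins, measured 10.18, 10.27 and 10.18 in induced against 15.76 and 15.69 in immature cells. It fell by 5.51 ± 0.06 (adjusted p = 2.34e-12), to the level of the MEF and TTF means of 10.06 and 10.38. Inhba, the beta A subunit, measured 9.12, 9.16 and 9.35 in induced against 16.26 and 16.22 in immature cells, although MEF and TTF were at 15.35 and 15.89. Inhbb, the beta B subunit of inhibin B, measured 10.39, 10.38 and 10.37 in induced against 14.53 and 14.78 in immature cells. The induced arrays were below both immature arrays for all 3 subunits, and for Inhba and Inhbb below both fibroblast types too. Fst, the follistatin that binds activins, fell by 5.36 ± 0.15, from 14.06 and 13.88 to 8.48, 8.43 and 8.92.

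Among the receptors, Amhr2, which binds anti-Müllerian hormone, measured 16.86, 16.96 and 16.67 in induced against 14.74 and 14.92 in immature cells. Its rise of 2.00 ± 0.09 is 4-fold (adjusted p = 1.42e-08), and the means were 9.90 in MEF, 8.65 in TTF and 16.04 in gonad. Fshr, the receptor of follicle-stimulating hormone, measured 6.56, 6.20 and 2.74 in induced against 8.70 and 8.64 in immature cells. It fell by 3.51 ± 0.99 (adjusted p = 0.00806), with all induced values under the array median and the MEF-derived array lowest. Acvr1b, a type I activin receptor, rose by 1.45 ± 0.08. Acvr2b fell by 0.97 ± 0.11, and Tgfbr3, the inhibin co-receptor betaglycan, fell by 2.36 ± 0.12. The estrogen receptor Esr1 fell by 3.17 ± 0.23, with its features between -4.84 and -1.35. The glucocorticoid receptor Nr3c1 and the growth factor receptor Igf1r fell by less than 1, at -0.94 ± 0.09 and -0.57 ± 0.10, and the thyroid hormone receptor Thra differed by 0.40 ± 0.09.

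To set these genes beside the factors that bind gonadal promoters, 250 bases before the gene start were searched on both strands in RefSeq promoters of assembly GRCm38.p6. The Nr5a1 site was AAGGTCA or AAGGCCA. The GATA motif was AGATAA or AGATAG, and equally TGATAA or TGATAG. The SOX motif was AACAAT or AACAAA. Over all 32851 promoters, 9.09% held the Nr5a1 site, 26.5% the GATA motif and 24.9% the SOX motif. For genes that rose by at least 1 the shares were 7.63%, 19.6% and 17.6%, for genes that fell by at least 1 they were 8.63%, 18.8% and 19.2%, and over the 12040 tested genes with a promoter they were 7.62%, 18.3% and 17.4%. The shares of risen and fallen genes thus lay within 2 percentage points of those of all tested genes. Of the embryonic Sertoli markers 21 genes had 22 promoters, of which 1 held the Nr5a1 site, 6 the GATA motif and 4 the SOX motif. Of 14 promoters of Sertoli hormones and receptors, 3 held the Nr5a1 site, 3 the GATA motif and 2 the SOX motif. In the same order the counts were 0, 4 and 2 of 8 Leydig and steroid promoters, and 3, 7 and 5 of 33 junction promoters. With so few promoters, these lists were not compared with all tested genes. The promoters of a receptor that rose (Amhr2), a marker that rose (Cst9), inhibin subunits that fell (Inhbb, Inha) and a junction gene that fell (Cldn11) are printed because these genes carry the opposite directions described here. Capitals mark motif matches on either strand, and a match is a description of letters only. They lie at chr15:102445117-102445366 (Amhr2, plus strand), chr2:148834897-148835146 (Cst9, plus strand), chr1:119422249-119422498 (Inhbb, minus strand), chr1:75507359-75507608 (Inha, plus strand) and chr3:31149670-31149919 (Cldn11, plus strand).
Amhr2: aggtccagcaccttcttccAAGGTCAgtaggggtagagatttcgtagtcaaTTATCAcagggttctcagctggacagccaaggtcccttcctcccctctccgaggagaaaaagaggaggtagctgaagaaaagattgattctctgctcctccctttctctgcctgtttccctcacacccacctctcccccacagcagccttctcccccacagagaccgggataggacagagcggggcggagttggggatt
Cst9: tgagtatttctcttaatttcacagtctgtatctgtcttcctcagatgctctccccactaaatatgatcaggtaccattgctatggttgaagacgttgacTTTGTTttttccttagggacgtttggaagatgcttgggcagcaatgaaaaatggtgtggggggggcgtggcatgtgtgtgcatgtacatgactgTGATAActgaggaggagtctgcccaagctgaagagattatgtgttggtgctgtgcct
Inhbb: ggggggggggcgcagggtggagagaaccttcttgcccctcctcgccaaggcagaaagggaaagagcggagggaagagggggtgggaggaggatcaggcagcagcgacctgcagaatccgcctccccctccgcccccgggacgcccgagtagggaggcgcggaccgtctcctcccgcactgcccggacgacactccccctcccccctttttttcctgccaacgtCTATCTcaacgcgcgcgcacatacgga
Inha: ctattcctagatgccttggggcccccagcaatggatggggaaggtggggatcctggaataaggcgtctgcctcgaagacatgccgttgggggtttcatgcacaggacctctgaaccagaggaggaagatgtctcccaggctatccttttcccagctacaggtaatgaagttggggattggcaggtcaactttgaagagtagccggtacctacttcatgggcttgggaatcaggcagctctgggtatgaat
Cldn11: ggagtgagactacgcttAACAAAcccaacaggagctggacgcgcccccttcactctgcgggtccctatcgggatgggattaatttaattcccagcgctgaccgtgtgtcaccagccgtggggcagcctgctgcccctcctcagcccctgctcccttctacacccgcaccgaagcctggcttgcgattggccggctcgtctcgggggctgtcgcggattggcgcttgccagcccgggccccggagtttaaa
Amhr2 held the Nr5a1 site at position -231 from the gene start and a GATA match at -199. Cst9 had a SOX match at -151 and a GATA match at -57, Inhbb a GATA match at -27 and Cldn11 a SOX match at -233. None of these letters was found in the Inha window as listed. Much of that window reads as protein-coding sequence, so it may lie inside the gene. No lack of sites before the Inha start is read from it.

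Genes of cell junctions, a list not limited to the blood-testis barrier, were lower in most members. Of 30 tested tight, gap and adherens junction genes, 6 were higher, 21 lower and 3 not called, with a median difference of -0.59. Of these, 4 rises and 12 falls were of at least 1. Cldn11, the main claudin of the barrier, measured 8.10, 8.07 and 8.38 in induced against 15.43 and 15.50 in immature cells. It fell by 7.28 ± 0.09 (adjusted p = 4.14e-12), and its gonad and mature Sertoli means were 11.98 and 15.61. Gja1, the connexin that couples Sertoli and germ cells, measured 6.66, 6.51 and 5.80 in induced against 10.79 and 10.63 in immature cells. Both fibroblast means, 11.29 and 12.75, were above the induced values as well. Cdh1, E-cadherin, fell by 4.58 ± 0.32, and Cdh2, N-cadherin, which Sertoli cells use, fell by 1.63 ± 0.09. Cdh2 remained bright on every induced array, at 14.51, 14.57 and 14.34. Ctnna2 fell by 7.80 ± 0.45 on its brightest feature and differed by -3.22 on another, and the gap junction gene Gjb2 fell by 3.43 ± 0.11.

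Claudins differed by member. Cldn3, a claudin of the barrier, measured 15.21, 15.22 and 14.49 in induced against 12.98 and 12.91 in immature cells, a rise of 2.03 ± 0.18, with 9.09 in gonad. Cldn7 fell by 5.37 ± 0.07, Cldn6 fell by 3.73 ± 0.28, Cldn1 fell by 3.17 ± 0.52 and Cldn4 fell by 1.87 ± 0.10. The scaffold Tjp1 rose by 1.36 ± 0.07 and the adhesion molecule Jam3 by 0.86 ± 0.07. Jam2 fell by 2.90 ± 0.11 on its brightest feature and differed by 0.04 on another. The adherens junction genes Ctnnb1, Ctnnd1 and Nectin3 were not called, at 0.12 ± 0.11, -0.10 ± 0.08 and 0.03 ± 0.06. Ctnna1, alpha-catenin, rose by 0.90 ± 0.10. Cgn, cingulin, which was dim in TTF at 6.33, differed by -0.49 ± 0.07 from a high level in both. Ocln differed by -0.61 ± 0.25, and its call was lost when either immature array or either TTF-ieSC array was left out, with adjusted p from 0.0875 to 0.176.

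Of 24 tested ligands of the germ cell niche, 10 were higher (41.7%) and 14 lower (58.3%), with a median difference of -0.71. All were thus called, where 79.3% of all genes were called, 39.9% higher and 39.4% lower. Besides Cxcl12, the 3 most changed members included Nrg1, a neuregulin that acts on spermatogonia, and Bmp4, a growth factor of primordial germ cells. Nrg1 measured 6.70, 6.23 and 4.63 in induced against 11.78 and 11.93 in immature cells, with the MEF-derived array lowest. Bmp4 measured 9.70, 9.86 and 8.06 in induced against 14.28 and 14.43 in immature cells, again lowest in the MEF-derived cells, and MEF themselves had a mean of 14.87. Retinoid genes were mostly lower: 4 of 18 tested were higher, 12 lower and 2 not called, with a median of -1.01. Aldh1a2, which makes retinoic acid, measured 7.34, 7.09 and 7.16 in induced against 13.01 and 13.21 in immature cells, while Cyp26b1, which degrades it, was higher. Rbp4 fell by 6.73 ± 0.22 and the binding protein Crabp1 fell by 5.35 ± 0.25. Genes known from ovary and granulosa cells were divided, with 5 of 18 higher, 11 lower and 2 not called. Bmp2 fell by 5.87 ± 0.11, and Gng13, a G protein subunit, rose by 4.66 ± 0.23, from 10.87 and 11.01 to 15.27, 15.35 and 16.20.

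Markers of other testis cell types were read on the same arrays, the immature cells being a primary culture. Of 23 tested germ cell genes, 19 were lower, each by at least 1, 3 were higher and 1 was not called, with a median difference of -3.60. The log2 of their summed signal was 17.21 and 17.37 on the immature arrays and 12.54 to 12.66 on the induced arrays. Of the 19 falls, 17 had an induced mean under the array median, so these genes entered the comparison through the immature side and had to differ. Dazl, an RNA-binding protein of germ cells, measured 5.10, 4.76 and 5.54 in induced against 13.02 and 13.03 in immature cells. Mael, of the piRNA pathway, measured 5.68, 6.28 and 6.02 in induced against 13.77 and 13.52 in immature cells, and Ddx4, the vasa helicase chosen after its values were seen, measured 4.42, 6.03 and 6.04 in induced against 12.09 and 12.20 in immature cells. The induced arrays had all 3 under the array median, and the immature arrays had all 3 far above it. In MEF the summed signal of the germ cell genes was 12.25 on both arrays.

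Leydig and steroid genes were lower in 8 of 12, higher in 2 and not called in 2, with a median of -2.45. Of these 8 falls, 5 had an induced mean under the array median. Hsd3b1, which makes progesterone, measured 6.87, 6.78 and 7.72 in induced against 12.10 and 12.23 in immature cells, and Star, which moves cholesterol into mitochondria, 7.80, 7.72 and 7.75 in induced against 11.86 and 11.96 in immature cells. The induced arrays were below the immature ones for both, although the summed signal of the list was higher, 18.11 to 18.14 against 17.57 to 17.61, since the sum follows its brightest members. Macrophage genes were lower in 16 of 19, higher in 1 and not called in 2, with a median of -2.36. Their summed signal was 14.09 to 14.25 in induced and 15.85 to 15.93 in immature cells. Of the 16 falls, 13 had an induced mean under the array median and entered through the immature side. Mpeg1, a macrophage perforin, fell by 7.19 ± 0.14, and its other feature differed by -3.96. Ms4a7 fell by 6.53 ± 0.50 and Tyrobp fell by 5.15 ± 0.44.

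Genes of the contractile peritubular cells were lower in 15 of 16, each by at least 1, and higher in 1, with a median of -3.75, the largest fall in median among the lists of more than 5 genes. Their summed signal was 17.27 to 17.45 in induced and 20.32 to 20.33 in immature cells. Myl9, a smooth muscle myosin light chain, measured 9.82, 9.80 and 9.86 in induced against 18.13 and 18.15 in immature cells, Actg2, a smooth muscle actin, 7.92, 7.97 and 8.21 in induced against 15.77 and 15.80 in immature cells, and Acta2, the actin chosen after its values were seen, 13.04, 13.08 and 13.69 in induced against 18.41 and 18.39 in immature cells. All of these were also bright in MEF, at 18.29, 16.98 and 18.60. In bulk RNA, fewer cells of a type and less of its RNA per cell cannot be told apart. Germ, Leydig, macrophage and peritubular RNA moved with the comparison, and their part in the falls of the Sertoli genes above was not tested. Endothelial genes were lower in 12 of 19, higher in 5 and not called in 2, with a median of -1.21. Of the falls 7 had an induced mean under the array median, and over the 6 genes left by a filter at the 75th percentile the median was 0.86. Esam, an endothelial junction molecule, rose by 5.10 ± 0.09, while Sox17 fell by 3.34 ± 0.26 and Robo4 fell by 3.24 ± 0.08. Of 6 tested erythroid genes 4 were higher, 1 was lower and 1 was not called. All 4 rises had an immature mean under the array median and the 1 fall an induced mean under it. These genes entered through their brighter side and had to differ. Klf1 rose by 4.92 ± 0.10 and the globin Hbb-bt fell by 3.60 ± 0.32.

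**Figure D3:**
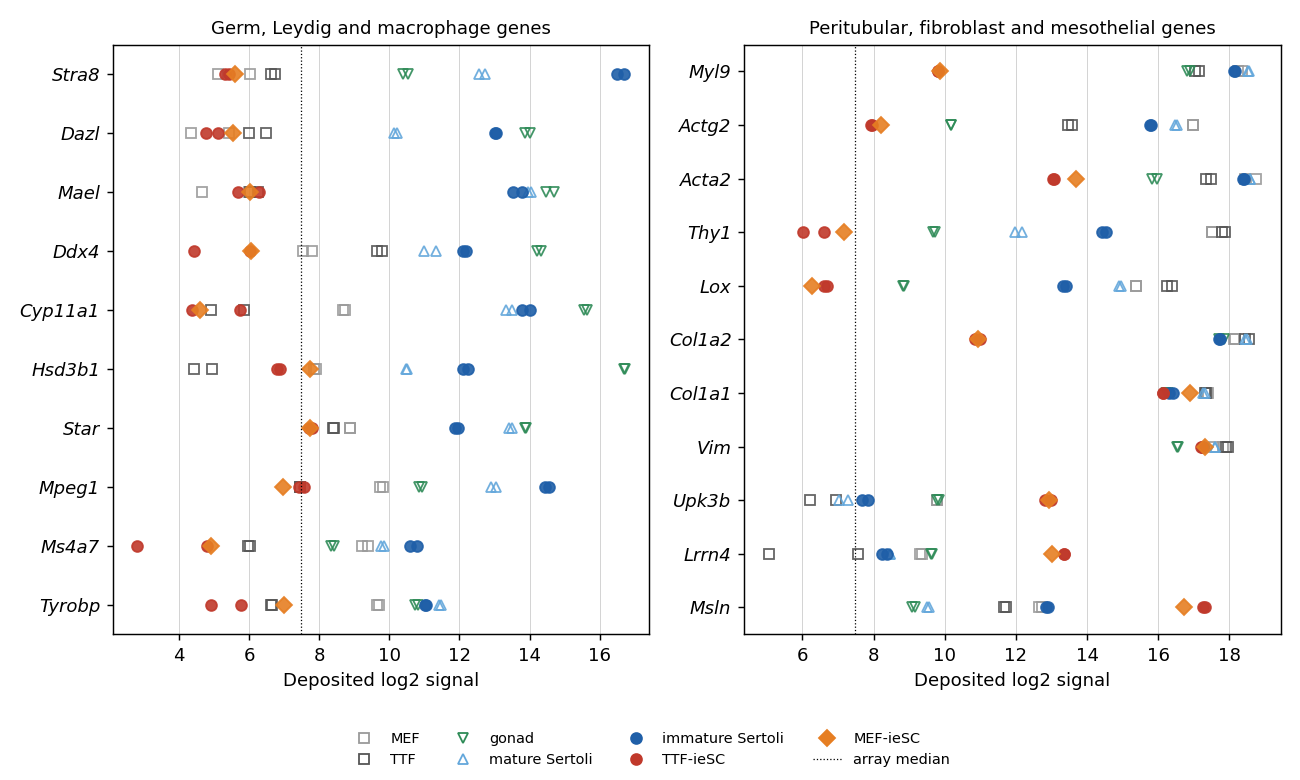
Log2 signal (x axis) of genes of germ, Leydig, macrophage, peritubular, fibroblast and mesothelial cells on each of the 13 arrays, 1 symbol per array, with the array median dotted. Germ, Leydig, macrophage and peritubular genes were lower on all 3 induced arrays than on both immature arrays, Vim and Col1a1 overlapped, and Upk3b, Lrrn4 and Msln were higher.

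Genes of fibroblasts and their matrix, the starting cells, were mostly lower in induced than in immature cells. Of 37 tested, 5 were higher, 26 lower and 6 not called, with a median of -2.61. Of the 26 falls, 12 had an induced mean under the array median. The median level of the 37 genes was 9.57 to 9.80 on the induced arrays and 12.72 to 12.80 on the immature arrays. On the fibroblast arrays it was 15.34 to 15.70. Thy1, a surface glycoprotein of fibroblasts, measured 6.00, 6.60 and 7.18 in induced against 14.43 and 14.54 in immature cells, against 17.51 and 17.84 in MEF and TTF. Mmp2, a gelatinase, fell by 6.96 ± 0.09, and Lox, which cross-links collagen, fell by 6.84 ± 0.11. The collagen I chains, chosen after their values were seen, differed from each other. Col1a2 fell by 6.81 ± 0.07, from 17.74 and 17.71 to a mean of 10.92. Col1a1 measured 16.12, 16.14 and 16.88 in induced against 16.43 and 16.32 in immature cells, a difference of 0.01 ± 0.19 (adjusted p = 0.953). Vim, the mesenchymal filament protein, also chosen after its values were seen, differed by -0.01 ± 0.07 (adjusted p = 0.909).

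Basement membrane genes were higher in 7 of 21, lower in 11 and not called in 3, with a median of -0.57. Lamb1, a laminin chain bright in every other group, measured 7.81, 7.92 and 9.10 in induced against 15.75 and 15.89 in immature cells, Lama2 fell by 4.98 ± 0.18 and Lamb3 fell by 4.70 ± 0.26. Epithelial and keratin genes were lower in 18 of 26, higher in 6 and not called in 2. Krt17 fell by 6.18 ± 0.28, Krt19 fell by 5.76 ± 0.12 and Krt7 fell by 5.28 ± 0.21. Krt19 measured 8.80, 8.74 and 8.36 in induced against 14.38 and 14.40 in immature cells, with TTF at 13.92. Genes of podocytes and mesothelium, cell types that express Wt1, were higher in 10 of 13 and lower in 3, with a median of 1.40, beside 39.9% higher over all genes. Krt19 is a member of this list too and was among its 3 falls. Upk3b, an uroplakin of mesothelium, measured 12.82, 12.97 and 12.92 in induced against 7.67 and 7.86 in immature cells. Lrrn4, another mesothelial gene, measured 13.35, 13.35 and 13.01 in induced against 8.25 and 8.38 in immature cells. For both, the induced arrays lay above all other groups, with gonad means of 9.81 and 9.63. Msln, mesothelin, chosen after its values were seen, measured 17.25, 17.30 and 16.74 in induced against 12.84 and 12.90 in immature cells, with 12.69 in MEF. The summed signal of the list was 18.66 to 18.83 in induced and 17.66 to 17.71 in immature cells. Wt1, 1 of the 5 transgenes, is itself a member of this list.

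Cell division genes differed little as a group. Of 35 tested, 9 were higher, 13 lower and 13 not called, with a median of -0.02, and none fell by at least 1. Mki67, the proliferation antigen chosen after its values were seen, measured 15.28, 15.26 and 15.10 in induced against 15.20 and 15.25 in immature cells, a difference of -0.01 ± 0.06 (adjusted p = 0.825). Ccnd1, cyclin D1, measured 17.36, 17.43 and 17.15 in induced against 13.12 and 12.90 in immature cells, a rise of 4.30 ± 0.10. Cdc20 rose by 1.18 ± 0.32, with the immature arrays apart at 15.05 and 13.60, and Bub1 fell by 0.89 ± 0.07. Cell cycle inhibitors and p53 targets were higher in 14 of 20, lower in 5 and not called in 1, with a median of 1.06. Pmaip1, the death-promoting p53 target Noxa, measured 12.75, 12.86 and 13.04 in induced against 10.06 and 10.26 in immature cells. Cdkn2a, which encodes p16 and p19Arf, measured 14.34, 14.32 and 14.10 in induced against 12.19 and 12.31 in immature cells, above both immature arrays and below the TTF mean of 17.16. Cdkn1c, an imprinted inhibitor, fell by 4.88 ± 0.35.

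Cholesterol and glucose genes were mostly higher. Of 20 tested cholesterol synthesis genes, 17 were higher, 2 lower and 1 not called, with a median of 0.69, and 4 rose by at least 1. Tm7sf2, a sterol reductase, measured 14.99, 14.92 and 15.11 in induced against 11.53 and 11.61 in immature cells, Sc5d rose by 1.41 ± 0.07 and Ebp by 1.33 ± 0.06. Genes of glucose use and lactate export, by which Sertoli cells feed germ cells, were higher in 15 of 24, lower in 4 and not called in 5, with a median of 0.68. Aldoc, an aldolase, measured 17.72, 17.76 and 18.01 in induced against 13.25 and 13.01 in immature cells, a 26-fold rise. Slc2a8, a glucose transporter, rose by 3.58 ± 0.10, while Slc2a4, the insulin-responsive transporter, fell by 2.87 ± 0.09. Ldha, lactate dehydrogenase A, and Slc2a1, the common glucose transporter, both chosen after their values were seen, differed little, at -0.30 ± 0.08 and 0.23 ± 0.07. Genes of xenobiotic and glutathione metabolism were lower in 18 of 28, higher in 5 and not called in 5. Sod3, an extracellular superoxide dismutase, measured 5.74, 5.97 and 5.68 in induced against 14.38 and 14.17 in immature cells, Gsta2 fell by 6.82 ± 0.37 and Gsta3 fell by 5.96 ± 0.14.

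The Hox genes, which record position along the body, divided by cluster. This division was noticed after the values were seen. All 10 tested Hoxa genes were higher, by 1.16 to 4.28. All 9 tested Hoxb genes were lower, between -5.32 and -2.45, and all 6 tested Hoxc genes were lower, between -5.54 and -1.46. Of 7 Hoxd genes, 3 were higher, 3 lower and 1 not called. Over all genes 39.9% were higher and 39.4% lower. Of the 13 falls among anterior and central Hox genes, 12 had an induced mean under the array median, as had 3 of the 5 posterior falls. In each of these 2 lists, 3 rises had an immature mean under it. Such genes entered the comparison through the other side and had to differ. Hoxa13, chosen after its values were seen, measured 10.31, 9.99 and 9.81 in induced against 6.23 and 5.83 in immature cells, and its other feature differed by 2.11. The TTF mean of Hoxa13 was 10.33 and the MEF mean 8.77. Hoxb4 measured 4.25, 4.66 and 5.53 in induced against 10.07 and 10.19 in immature cells, although both fibroblast means were above 10.07 and 10.19, at 12.07 and 12.04. Hoxb13, the most posterior gene of its cluster, measured 4.30, 5.09 and 5.38 in induced against 9.84 and 9.97 in immature cells. Its TTF mean was 15.88, so the TTF-derived cells lay far below their source. Hoxc9 fell by 5.54 ± 0.35, and Hoxd13 measured 11.73, 11.65 and 11.35 in induced against 7.50 and 7.46 in immature cells, near the MEF mean of 11.40 and above the TTF mean of 7.46.

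Imprinted genes, expressed from 1 parental allele, were lower in 19 of 29, higher in 4 and not called in 6. Meg3, the noncoding RNA next to Dlk1, measured 6.04, 6.30 and 6.16 in induced against 12.57 and 12.78 in immature cells, and its features ranged from -6.50 to -1.77. Mest measured 17.96, 17.95 and 18.03 in induced against 11.55 and 11.41 in immature cells, above the MEF and TTF means of 14.65 and 9.41 and the gonad mean of 16.72. Of 6 tested X-linked Rhox genes, 5 were lower and Rhox8 was higher. Of the 5 falls, 4 had an induced mean under the array median. Rhox13 fell by 6.05 ± 0.34, Rhox10 fell by 5.31 ± 0.12 and Rhox6 fell by 2.62 ± 0.18. Among 15 DNA methylation genes, 4 were higher, 6 lower and 5 not called. The de novo methyltransferase Dnmt3b measured 9.87, 9.93 and 10.17 in induced against 13.33 and 13.21 in immature cells, its cofactor Dnmt3l fell by 2.31 ± 0.07, and the demethylating enzyme Tet1 rose by 2.38 ± 0.10.

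Defence genes were mostly lower. Of 28 tested interferon response genes, 23 were lower, 4 higher and 1 not called, with a median of -1.91. Of the 23 falls, 10 had an induced mean under the array median. Oas1a, which senses double-stranded RNA, measured 6.48, 6.74 and 7.42 in induced against 13.62 and 13.81 in immature cells, and Ifih1, the sensor Mda5, fell by 6.29 ± 0.24. On their other features the falls were -4.04 and -3.24. Ifi44 fell by 5.30 ± 0.41. Inflammatory factors were lower in 12 of 18 and higher in 6, also with a median of -1.91. Of these 12 falls, 8 had an induced mean under the array median. Ccl2, a monocyte chemokine, measured 18.51, 18.55 and 17.98 in induced against 13.88 and 13.65 in immature cells, a rise of 4.59 ± 0.16. Cxcl5 fell by 6.48 ± 0.10 and Ptgs2, the inducible cyclooxygenase, fell by 4.33 ± 0.08. Secreted antiproteases and defence proteins were lower in 17 of 23, higher in 5 and not called in 1. Wfdc2 fell by 8.47 ± 0.15, Serping1 fell by 4.97 ± 0.28, and Cst9 was the member with the largest rise.

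**Figure D4:**
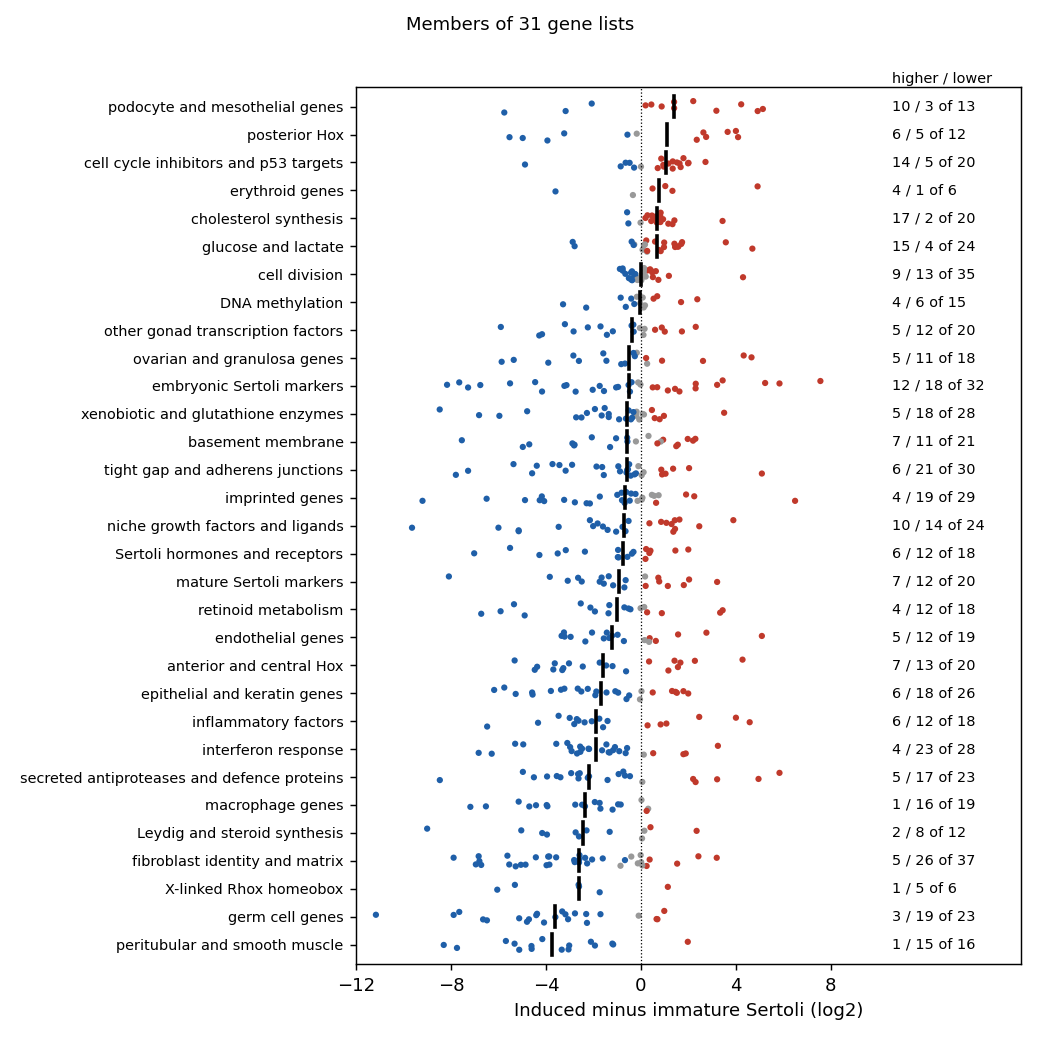
Log2 difference between induced and immature Sertoli cells (x axis) for each tested member of the gene lists other than the 5 factors, with called genes coloured and each list's median as a bar. Medians ran from -3.75 for peritubular genes to 1.40 for podocyte and mesothelial genes, beside 0.02 over all genes tested (dotted).

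The induced cells had been pooled from 2 fibroblast sources, and the sources differed less from each other than either did from immature cells. Between TTF-ieSC and MEF-ieSC, 2367 genes were called (15.6%), 1217 higher in TTF-ieSC (8.02%) and 1150 higher in MEF-ieSC. For MEF-ieSC, with 1 array, the spread was borrowed from the replicated groups, so the source and that array cannot be told apart. The count was 1562 without TTF-ieSC replicate 2 and 1186 in a fit of only the 5 arrays. The median absolute difference was 0.14 between sources and 0.58 between induced and immature cells. Each set against the immature arrays, which both contrasts share, TTF-ieSC had 12285 called genes (81%) and MEF-ieSC 11343 (74.8%). Of 32 tested embryonic Sertoli markers 13 were called between the sources, and of the 5 factors 2, Sox9 at 0.67 ± 0.09 and Nr5a1 at 0.43 ± 0.10 (TTF-ieSC minus MEF-ieSC).

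Some Sertoli genes differed in size between the sources. Trf was higher than immature in both, by 3.81 ± 0.08 in TTF-ieSC and 2.03 ± 0.10 in MEF-ieSC. The difference between sources was 1.77 ± 0.10 (adjusted p = 8.35e-06). Fshr was under the array median on every induced array from either source, so the size of its difference between them, 3.64 ± 0.62 (adjusted p = 0.00462), is uncertain at such low signal. Ptgds differed between sources by 0.59 ± 0.08 and Cldn3 by 0.72 ± 0.07, both higher in TTF-ieSC. Among genes higher in MEF-ieSC, Cadm3, a neuronal adhesion molecule, measured 8.04, 8.14 and 10.68 in induced against 7.88 and 8.09 in immature cells. There the 2 TTF-derived arrays lay near the immature level and only the MEF-derived array was above it. Igf2bp3, a fetal RNA-binding protein, measured 7.98, 7.98 and 10.32 in induced against 11.37 and 11.53 in immature cells. Gucy1b1, a subunit of the nitric oxide receptor, differed between sources by -2.24 ± 0.11. Fam155a and Ptpn20 differed between sources by -3.04 ± 0.14 and -2.72 ± 0.65.

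All 7 genes whose TTF-ieSC level was above that of MEF-ieSC by 5 or more lay in the uneven corner. Aldh9a1 there measured 14.96, 15.25 and 1.99 in induced against 12.38 and 10.54 in immature cells, Sirt1 12.29, 12.27 and 1.95 in induced against 12.26 and 10.48 in immature cells, Adgra2 12.24, 12.26 and 2.38 in induced against 12.41 and 10.70 in immature cells, Aopep 11.80, 11.82 and 2.44 in induced against 12.09 and 10.38 in immature cells and Ahnak 15.17, 15.24 and 6.71 in induced against 15.03 and 13.37 in immature cells. On the MEF-derived array all 5 were far below every other value, and on immature array 2 all 5 were below array 1. Ahnak read from a feature outside the corner differed between the sources by 0.43 and between induced and immature cells by 0.55. In the corner 99 of 960 features (10.3%) were lower by over 2 in MEF-ieSC than in TTF-ieSC, against 503 of 62016 features (0.811%) elsewhere. Outside the corner, among genes chosen after their values were seen, Ndufa4l2, a mitochondrial protein, measured 11.21, 11.27 and 8.45 in induced against 7.21 and 7.54 in immature cells. Its TTF mean was 16.96 and its MEF mean 11.05.

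**Figure D5:**
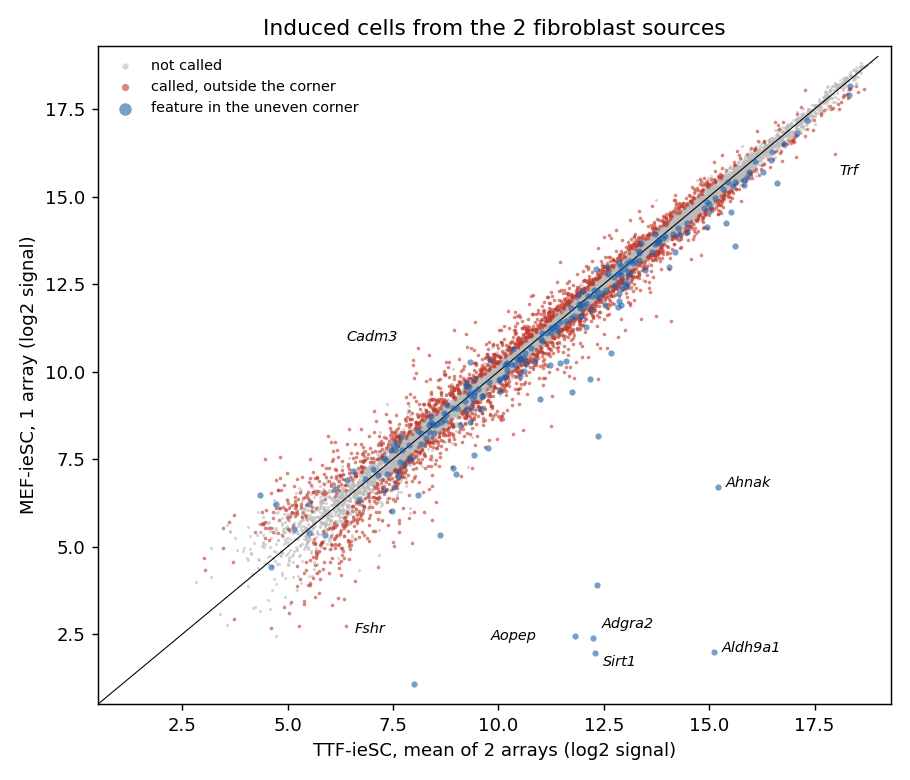
Log2 signal of each tested gene on the MEF-ieSC array (y axis) against the mean of the 2 TTF-ieSC arrays (x axis), with genes called between the sources in red and genes of the uneven corner in blue. Aldh9a1, Sirt1, Adgra2, Aopep and Ahnak, all in the corner, lie farthest below the line of equal levels.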

How the data were processed

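RNA was measured on 1-colour Agilent mouse expression arrays (Cy3), 1 sample per array. Deposited by the authors was a table of log2 signal, 13 arrays wide, whose values already had 1 common distribution. limma was used, per the submitters' processing notes, with no version stated. Feature extraction and background correction were not described in the labels. Arrays give no read depth, so their number limits the precision. The design text gives duplicates for every group, and a further MEF-ieSC array is not analysed here.

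Features were named through the platform annotation, updated through a RefSeq table of GRCm38.p6, and none was counted for several genes. Each gene was read from its member feature with the highest mean. The log2 values were fitted in R 4.3.3 by limma 3.58.1 (lmFit, eBayes), with 13 arrays in 6 groups (7 residual and 2.52 prior degrees of freedom). The 2 sources of induced cells were compared in a fit of 7 groups (6 and 2.83). Tests were two-sided with Benjamini-Hochberg adjustment. The labels do not say that replicates came from separate cultures or animals, so p-values reflect array-to-array spread that may be technical only. The script was tested on simulated data.

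The members and the gene lists were chosen with earlier results of these data known. Named were the 5 factors, the 10 largest rises and 10 largest falls among called genes whose arrays did not overlap and whose brighter mean was above the 75th percentile (clone, predicted and Riken names left out), the 3 most changed called members of each of 32 lists, any member of lists of up to 6 genes, any member of the embryonic Sertoli, hormone and junction lists, and the 5 largest differences between the sources each way. The array layout of 164 columns and 384 rows was inferred from feature numbers, and its uneven corner (rows 1 to 48, columns 145 to 164) from blocks of 16 features. Alternatives were other normalizations, filters and summaries of features, array weights, a variance trend with robust fitting, a minimum difference of 1, only the 5 arrays, 7 groups, leaving out each array and, chosen after seeing the data, leaving out the corner.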

Additional observations from a re-analysis of the deposited data

Results flagged for a closer look

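Listed are 26 named genes called between the 2 fibroblast sources and differing by 1 or more on the log2 scale. The call rests on 1 MEF-ieSC array, so the source and that array cannot be told apart. Many of these genes were named for this difference or chosen after their values were seen. Their number therefore says nothing of how common such differences are. Values are TTF-ieSC minus MEF-ieSC, and their causes were not tested. Higher in TTF-ieSC were the receptor gene Fshr by 3.64 (under the array median in both), the transferrin gene Trf by 1.77, the ligand genes Nrg1 by 1.83, Bmp4 by 1.72 and Cxcl14 by 1.47, the retinol enzyme gene Adh1 by 1.59 and the complement inhibitor gene Serping1 by 1.07. Rnf144a was higher by 2.85, Ccl12 by 2.83, Ndufa4l2 by 2.79 and Adam23 by 2.72, and these 4 genes were chosen after their values were seen. Aldh9a1 was higher by 13.12, Sirt1 by 10.33, Adgra2 by 9.86, Aopep by 9.36 and Ahnak by 8.49, and all 5 lie in the uneven corner of the array. Lower in TTF-ieSC were the Sertoli gene Aard (-1.34), the laminin gene Lamb1 (-1.23), Tyrobp (-1.64), the cell cycle inhibitor gene Cdkn1c (-1.39) and Hoxb4 (-1.08). Besides Fshr, the genes Nrg1, Cxcl14, Adh1, Aard and Hoxb4 were under the array median on every induced array. The sizes of their differences between sources are therefore uncertain as well. Fam155a (-3.04), Ptpn20 (-2.72), Cadm3 (-2.59), Igf2bp3 (-2.34) and Gucy1b1 (-2.24) were the 5 most raised in MEF-ieSC.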

How the results depend on the processing

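The main counts of 6052 higher and 5968 lower genes were moved by 3 settings. A filter at the 75th percentile gave 3942 and 3953 because only 9943 genes were tested, testing every feature on its own gave 9192 higher among 22953 features, and a minimum difference of 1 gave 1577 and 2126. Leaving out each array in turn gave 5658 to 6180 higher and 5545 to 6105 lower. Between the sources the count of 2367 became 1186 with only the 5 arrays and 1562 to 1629 without each TTF-ieSC array in turn; fewer arrays then set the spread. Renewed normalizations returned the same calls among named genes, since every array already had 1 distribution. Of the 188 called named genes, 39 lost the call at a minimum difference of 1, 7 with only the 5 arrays, 3 without a filter, 2 with array weights and 2 to 8 without 1 array. Leaving out the uneven corner lost no call among them. A median of the embryonic Sertoli list of 0.24 and of the endothelial list of 0.86 came from the stricter filter, which removes dim genes, and a median of the posterior Hox list of -0.37 from no filter, which adds them. Rhox8 was -0.18 (limma adjusted p = 0.0467) when its features were averaged. No paired analysis was run, because the replicate numbers follow accession order and are not known to pair arrays. Signal over background is unknown, which limits every value near the array median.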
